A study of Mus musculus with 18 samples.

Results

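The genes described here are ATF4 targets and cytosolic tRNA synthetases. A list of 40 symbols was taken, and 9 further synthetases with a symbol of 1 or 2 letters followed by "ars" were added (Aars, Dars, Gars, Hars, Kars, Qars, Rars, Vars and Wars). All 49 are rows of the count table, which holds 21003 symbols. The 44 genes with at least 10 counts in 3 libraries were kept, and Atf3, Atf5, Stc2, Cth and Slc7a3 were not. Atf3 had 0 counts in every library. The 44 genes comprise 5 transcription factors, 7 feedback and stress effectors, 9 enzymes of amino acid and one-carbon synthesis, 5 amino acid transporters and 18 synthetases.

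The integrated stress response lets a cell slow general protein synthesis and switch on a repair programme when amino acids or other supplies run short. Stress kinases phosphorylate the translation factor eIF2, most mRNAs are then translated less, and the mRNA of the transcription factor ATF4 is translated more. ATF4 switches on genes for amino acid synthesis, amino acid import and one-carbon metabolism, and many of the aminoacyl-tRNA synthetases, the enzymes that load each tRNA with its amino acid. It also switches on feedback and cell-death genes such as Ddit3, Trib3 and Ppp1r15a. Because much of this control acts on translation, the level of Atf4 mRNA is an incomplete readout of the pathway. Haematopoietic stem cells are known for a low rate of protein synthesis and for readiness to use this response.

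The 18 libraries each hold RNA of 100 mouse LT-HSCs (long-term haematopoietic stem cells) from bone marrow of mice aged 8 to 12 weeks. One label field names the mice B6.SJL and another names the genotype as c57 B6 WT. There were 3 groups of 6 libraries. The fresh group held cells without culture, and its label also gives pH 7.4. The other groups held cells kept for 48 h in medium at either pH 7.4 or pH 6.9. The labels describe the culture medium as IMDM with 10% FBS and with mSCF, GCSF and mTPO at 50 ng/ml, under 5% CO2 and 3% O2. Libraries are named below by group and by the number (1 to 6) in their label, and the design text speaks of 6 individual mice. The title of the series names pH, stem cell potential and polyamines, and the comparison of pH 6.9 with pH 7.4 is the one it sets up.

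ATF4 paired with a C/EBP protein binds the C/EBP-ATF response element, whose core was searched as TGATGNAA (N is any base) or its reverse complement TTNCATCA on both strands. The search used RefSeq promoters of the GRCm38.p6 build, from 250 bases before to 50 bases after each start site. Of the 44 genes, 34 had an entry, and 12 of these (35.3%) held at least 1 match, against 1219 of 27025 genes in the whole table (4.51%). Eif4ebp1, Slc7a5, Slc1a5, Cars, Nars, Lars, Hars, Rars, Vars and Wars had no entry. Matches were found in 5 of 11 synthetases with an entry, 3 of 6 effectors, 2 of 9 synthesis enzymes, 1 of 3 transporters and 1 of 5 transcription factors. Of the 13 matches, 11 with 10 bases on each side are shown because they are the sequence feature that most directly ties these genes to ATF4 as a class. The match is in capitals, and each is written 5′ to 3′ on the strand that reads TGATG.
Asns (chr6:7693215-7693242, minus strand): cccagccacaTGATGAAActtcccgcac
Chac1 (chr2:119351039-119351066, minus strand): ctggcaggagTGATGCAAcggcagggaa
Trib3 (chr2:152344029-152344056, plus strand): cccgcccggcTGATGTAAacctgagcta
Vldlr (chr19:27216810-27216837, minus strand): ctaggagcgcTGATGCAActattgctgc
Nupr1 (chr7:126625563-126625590, plus strand): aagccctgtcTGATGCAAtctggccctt
Pycr1 (chr11:120643834-120643861, minus strand): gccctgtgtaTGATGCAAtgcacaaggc
Slc1a4 (chr11:20332700-20332727, plus strand): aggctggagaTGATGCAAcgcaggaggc
Gars (chr6:55037961-55037988, minus strand): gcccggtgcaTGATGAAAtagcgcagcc
Iars (chr13:49682127-49682154, minus strand): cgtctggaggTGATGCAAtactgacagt
Tars (chr15:11399656-11399683, plus strand): gctaaccagcTGATGCAAcgggactcct
Yars (chr4:129189896-129189923, plus strand): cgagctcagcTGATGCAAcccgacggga
The variable base was C in 9 of the 13 matches, A in 3 and T in 1. A match is a description of these letters and not evidence of binding in these cells.

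3 libraries stood apart before any comparison. Fresh 1 held 6311 counts, and fresh 4 and pH 6.9 3 had 9408 and 8925 genes detected, against 11225 to 12792 in the other 15 libraries. Total counts in the 17 libraries other than fresh 1 ran from 1640817 to 7508120. The synthetases show how unlike the rest the 2 libraries with few detected genes were: Eprs and Dars made up 63.9% of all synthetase counts in fresh 4 and 60.6% in pH 6.9 3, against 16.6% to 22.6% in the 15. Only 28 and 29 of the 44 genes reached 10 counts in fresh 4 and pH 6.9 3 and 0 did in fresh 1, against 38 to 44 in the 15. Results within sets of mice use the 15 libraries, and for each call of pH within a set the value with all 18 is given beside it. Below, odd mice and even mice mean mice with odd and even numbers. The library names begin with a pair of numbers in the style of sequencing indices, and the first of the pair is 1 value for the odd and another for the even libraries of each group. Within odd or within even mice, pH and this index therefore cannot be told apart. LT-HSC markers (Procr, Slamf1, Hlf and 8 others) were present, with 9 of 11 detected in all 15 libraries and a summed level of 467 to 1713 CPM. CPM are counts per 1e+06 of a library's TMM-scaled total.

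Over all 18 libraries, no gene of this set passed the test between pH 6.9 and pH 7.4, or between either culture and fresh cells. The test was edgeR's quasi-likelihood test with Benjamini-Hochberg adjustment over 10104 genes and a threshold of 0.05, and it called 0% of all genes in each of the 3 comparisons. DESeq2 called 4 genes and limma-voom 0 between the pH groups, none of them from this set. Before adjustment, edgeR had 254 genes (2.51%) with p under 0.05 between the pH groups, 381 (3.77%) between pH 7.4 and fresh and 229 (2.27%) between pH 6.9 and fresh. The 1 gene of this set among the 254 was Nupr1 (log2 fold change 2.39 ± 0.68 SE, adjusted p = 0.997). Of the 43 genes tested, 34 had a negative and 9 a positive log2 fold change at pH 6.9, with a median of -0.33 against -0.01 over all genes. This fit includes pH 6.9 3, in which 8 of the 44 genes had 0 counts. In no gene of the set did the 5 pH 6.9 libraries and the 6 pH 7.4 libraries among the 15 separate without overlap, where 0.206% of all genes did upward and 0.3% downward.

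When mice with odd and even numbers were taken apart, some of the 44 genes passed, at shares not far from those of all genes. In odd mice (3 libraries at pH 7.4, 2 at pH 6.9), Nupr1, Rars and Kars rose at pH 6.9, and Vldlr, Cars and Gpt2 fell. These are 6 of 44 genes (13.6%), where 11.1% of all 10659 genes tested passed (5.07% up, 6.01% down). In even mice (3 libraries each), Vldlr rose and Psat1, Rars and Kars fell. These are 4 of 44 (9.09%), where 6.75% of all genes passed (2.67% up, 4.07% down). The sign of the pH effect was opposite between the sets in 29 of 44 genes (65.9%), close to the 62.9% of all genes. Both signs were negative in 13 genes (29.5%), against 19.2% of all genes. Leaving out 1 library left as few as 1 of the 6 calls in odd mice (without pH 6.9 1; 2 without pH 7.4 1; 3 without pH 6.9 5) and 1 of the 4 in even mice (without pH 7.4 6 or pH 6.9 6; 2 without pH 6.9 2 or pH 6.9 4). Without pH 7.4 5, 11 genes of the set passed in even mice, and the count over all genes rose from 719 to 910. The split into odd and even mice was chosen because earlier results of these data had shown libraries differing by the index that goes with it. Tests of a difference between the sets are therefore a description and no independent evidence. The difference of the pH effect between the sets, tested as a contrast of the same fit, passed in 11 of 44 genes (25%), where 18.1% of all genes passed (8.96% up, 9.09% down). These 11 were Vldlr, Cars and Gpt2, with a larger log2 fold change in even mice, and Rars, Kars, Gars, Psat1, Slc7a5, Eif4ebp1, Psph and Shmt2, with a smaller one. Of these 11, 4 passed without pH 7.4 6, 5 without pH 6.9 4, 5 or 6, 6 without pH 7.4 1, 2, 4 or 5, 7 without pH 6.9 1 or 2, and 1 with all 18 libraries.

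Cell type markers differed with pH in both sets of mice. The markers of granulocyte-monocyte progenitors were the 6 genes Mpo, Elane, Ctsg, Prtn3, Ms4a3 and Cebpe, of which 3 were detected in all 15 libraries. In even mice their summed level was 1754 to 5107 CPM at pH 7.4, against 34.1 to 49.9 at pH 6.9. The 11 LT-HSC markers summed to 467 to 736 CPM at pH 7.4, against 1302 to 1713 at pH 6.9 in the same mice. In odd mice the progenitor sum was 44.8 to 74.3 CPM at pH 7.4, against 166 in both libraries at pH 6.9. In fresh cells the progenitor sum was 76.3 and 5517 CPM in the 2 odd libraries and 117 to 271 in the even ones. The LT-HSC sum of odd mice overlapped, at 983 to 1632 and 1168 to 1527 CPM. Markers of antigen-presenting cells (H2-Aa, H2-Ab1, H2-Eb1 and Cd74) summed to 12.5 to 27.7 CPM at pH 7.4, against 126 to 283 at pH 6.9 in odd mice, and to 15.4 to 24.5 in all even cultures. In even mice, mast cell and basophil markers summed to 36.5 to 176 CPM at pH 7.4, against 1.74 to 23.6 at pH 6.9. Markers of stroma, endothelium and epithelium summed to 31.9 to 87.2 and 92.2 to 126 CPM in the same mice. Erythroid markers of odd mice summed to 11.2 to 118 CPM at pH 7.4, against 146 to 195 at pH 6.9. Markers of T cells summed to at most 1.59 CPM in the 15 libraries, with Cd3g at 0. The part of these markers in the results below was not tested, and in bulk libraries fewer cells of a type and less RNA per cell cannot be told apart.

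**Figure D1:**
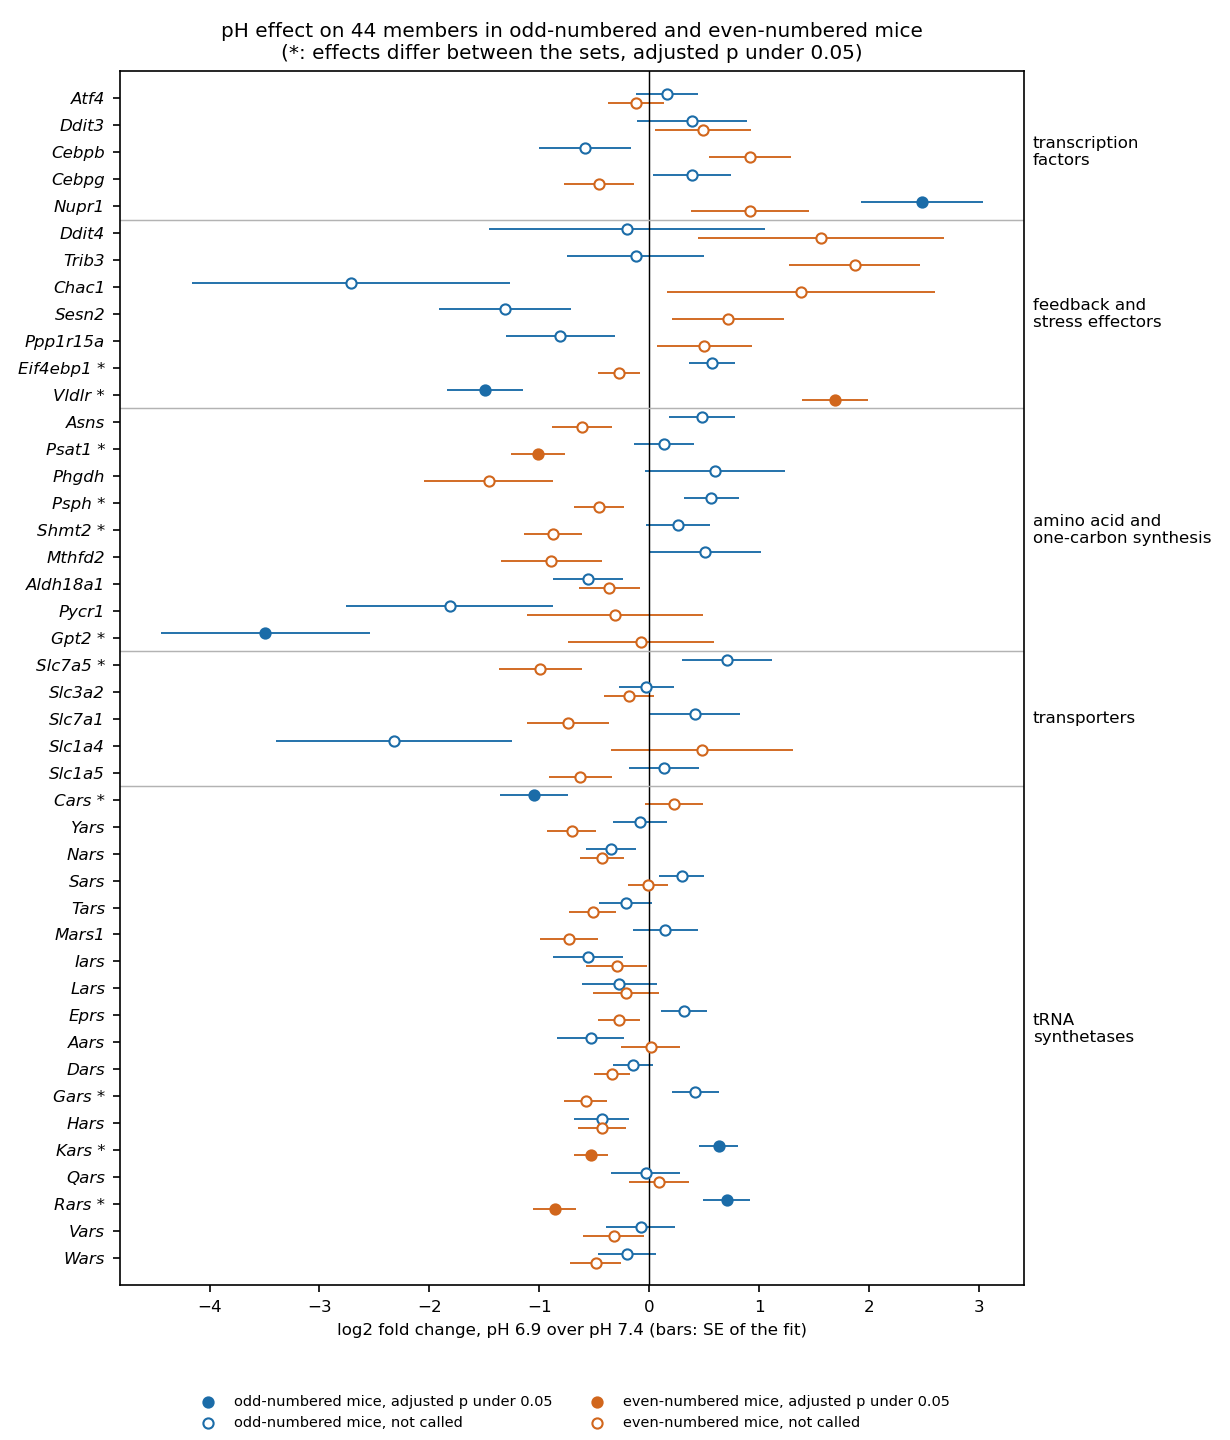
Log2 fold change of pH 6.9 over pH 7.4 (x axis) for each of the 44 genes (y axis, grouped by role), in odd mice (blue) and even mice (orange), with bars for the SE of the fit. Filled points passed the test at an adjusted p under 0.05, and an asterisk marks the 11 genes whose effects differ between the sets. A reader should see Vldlr at -1.49 and 1.69 and Rars at 0.70 and -0.86, while all 9 synthesis enzymes lie below 0 in even mice.

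Among the transcription factors, Atf4 itself did not pass any test of pH. In odd mice Atf4 was at 89.7, 109 and 82.0 CPM at pH 7.4, against 72.2 and 136 at pH 6.9. In even mice it was at 96.1, 109 and 101 CPM at pH 7.4, against 118, 99.7 and 68.5 at pH 6.9. Fresh cells had 74.7 and 112 CPM in odd and 113 and 138 in even mice. The pH groups overlapped in both sets, and the fresh even libraries lay just above the even libraries at pH 7.4. The log2 fold change of Atf4 was 0.16 ± 0.28 (SE, edgeR adjusted p = 0.765) in odd and -0.12 ± 0.25 (adjusted p = 0.843) in even mice. The left-out libraries fresh 4 and pH 6.9 3 had 5.18 and 32.5 CPM.

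Ddit3, which encodes CHOP, a factor that drives cell death under prolonged stress, was low throughout. It was at 13.8, 5.74 and 15.4 CPM at pH 7.4, against 17.3 and 13.02 at pH 6.9 in odd mice. Even mice had 9.79, 10.5 and 13.5 CPM at pH 7.4, against 11.0, 13.8 and 22.5 at pH 6.9, and fresh cells had 9.31 to 20.4. These ranges overlap, with log2 fold changes of 0.39 ± 0.50 (adjusted p = 0.676) and 0.49 ± 0.44 (adjusted p = 0.579).

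Nupr1, a small stress-induced chromatin protein, was the transcription factor that passed. It was at 10.0, 21.3 and 26.1 CPM at pH 7.4, against 182 and 37.7 at pH 6.9 in odd mice. Both pH 6.9 libraries lay above all pH 7.4 libraries, but pH 6.9 1 stood far above pH 6.9 5. The log2 fold change was 2.48 ± 0.56 (5.57-fold higher, adjusted p = 0.0102). It was 0.97 (adjusted p = 0.355) without pH 6.9 1, with the mouse number as a term the adjusted p was 0.0542, and with all 18 libraries it was 0.0636 (log2 2.70). Even mice had 8.24, 6.47 and 6.50 CPM at pH 7.4, against 15.7, 9.58 and 15.2 at pH 6.9, again without overlap, and a log2 fold change of 0.91 ± 0.54 that did not pass (adjusted p = 0.356). Cebpb and Cebpg, C/EBP partners of ATF4, did not pass. Their log2 fold changes were -0.59 and 0.39 in odd and 0.92 and -0.46 in even mice.

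Among the effectors, Vldlr, a receptor for lipoproteins and reelin, passed in both sets of mice in opposite directions and had the smallest adjusted p of the difference among the 44 genes. In odd mice Vldlr was at 343, 323 and 322 CPM at pH 7.4, against 160.4 and 78.3 at pH 6.9. In even mice it was at 107, 102 and 67.38 CPM at pH 7.4, against 295, 310.1 and 297 at pH 6.9. The pH groups did not overlap in either set, and the high values belonged to pH 7.4 in odd and to pH 6.9 in even mice. Fresh cells had 263 and 111 CPM in odd and 103 and 65.0 in even mice.

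Vldlr was 2.81-fold lower at pH 6.9 in odd mice (log2 -1.49 ± 0.35, adjusted p = 0.0123) and 3.24-fold higher in even mice (log2 1.69 ± 0.30, adjusted p = 0.00331). The difference between the sets was 3.18 ± 0.46 (adjusted p = 0.000197) and passed in each of 15 fits that left out 1 library, with adjusted p up to 0.00227. The fall in odd mice did not pass without pH 6.9 5 (log2 -1.04, adjusted p = 0.131). With all 18 libraries the log2 values were -1.95 (adjusted p = 0.124) and 1.71 (adjusted p = 0.655).

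Trib3, a pseudokinase that restrains ATF4 and CHOP, showed 1 high library. It was at 8.11, 36.4 and 8.32 CPM at pH 7.4, against 21.0 and 12.8 at pH 6.9 in odd mice. Even mice had 3.35, 4.19 and 3.01 CPM at pH 7.4, against 14.5, 15.9 and 9.04 at pH 6.9. The pH groups overlapped in odd mice and not in even mice, where the log2 fold change was 1.87 ± 0.59 and just missed the threshold with edgeR (adjusted p = 0.0648). DESeq2 gave an adjusted p of 0.0266 and limma-voom 0.0283 for the same contrast. Fresh cells had 3.72 to 7.41 CPM.

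Chac1, an enzyme that breaks down glutathione, was near the limit of detection. It was at 14.8, 9.10 and 4.75 CPM at pH 7.4, against 0 and 2.33 at pH 6.9 in odd mice, where a count of 0 allows up to 1.85 CPM. Even mice had 1.03, 0 and 2.54 CPM at pH 7.4, against 1.16, 4.79 and 3.46 at pH 6.9. Neither contrast passed, with adjusted p of 0.244 and 0.573.

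Eif4ebp1 encodes a repressor of cap-dependent translation. It was at 266, 290.4 and 272 CPM at pH 7.4, against 427 and 397 at pH 6.9 in odd mice, without overlap. Even mice had 239.5, 303 and 273 CPM at pH 7.4, against 244, 245 and 192 at pH 6.9, which overlap. Neither pH contrast passed (log2 0.57 ± 0.21, adjusted p = 0.0808, and -0.28 ± 0.19, adjusted p = 0.435). Their difference was -0.85 ± 0.28 (adjusted p = 0.0410), and 0.0987 with the mouse number as a term. It did not pass in 10 of the 15 fits that left out 1 library (adjusted p up to 0.11, without pH 6.9 1) or with all 18 libraries (-0.80, 0.326).

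Ppp1r15a, which directs the phosphatase that reverses eIF2 phosphorylation, and Sesn2 and Ddit4, which restrain mTORC1, did not pass. Their log2 fold changes were -0.81, -1.31 and -0.20 in odd and 0.50, 0.71 and 1.56 in even mice. All 7 effectors had opposite signs in the 2 sets of mice: 6 were lower at pH 6.9 in odd and higher in even mice, and Eif4ebp1 was the reverse. Of all 10659 genes, 62.9% had opposite signs, and 3715 were lower in odd and higher in even mice. The median log2 fold change of the effectors was -0.81 in odd and 1.38 in even mice, against -0.08 and 0.04 over all genes.

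**Figure D2:**
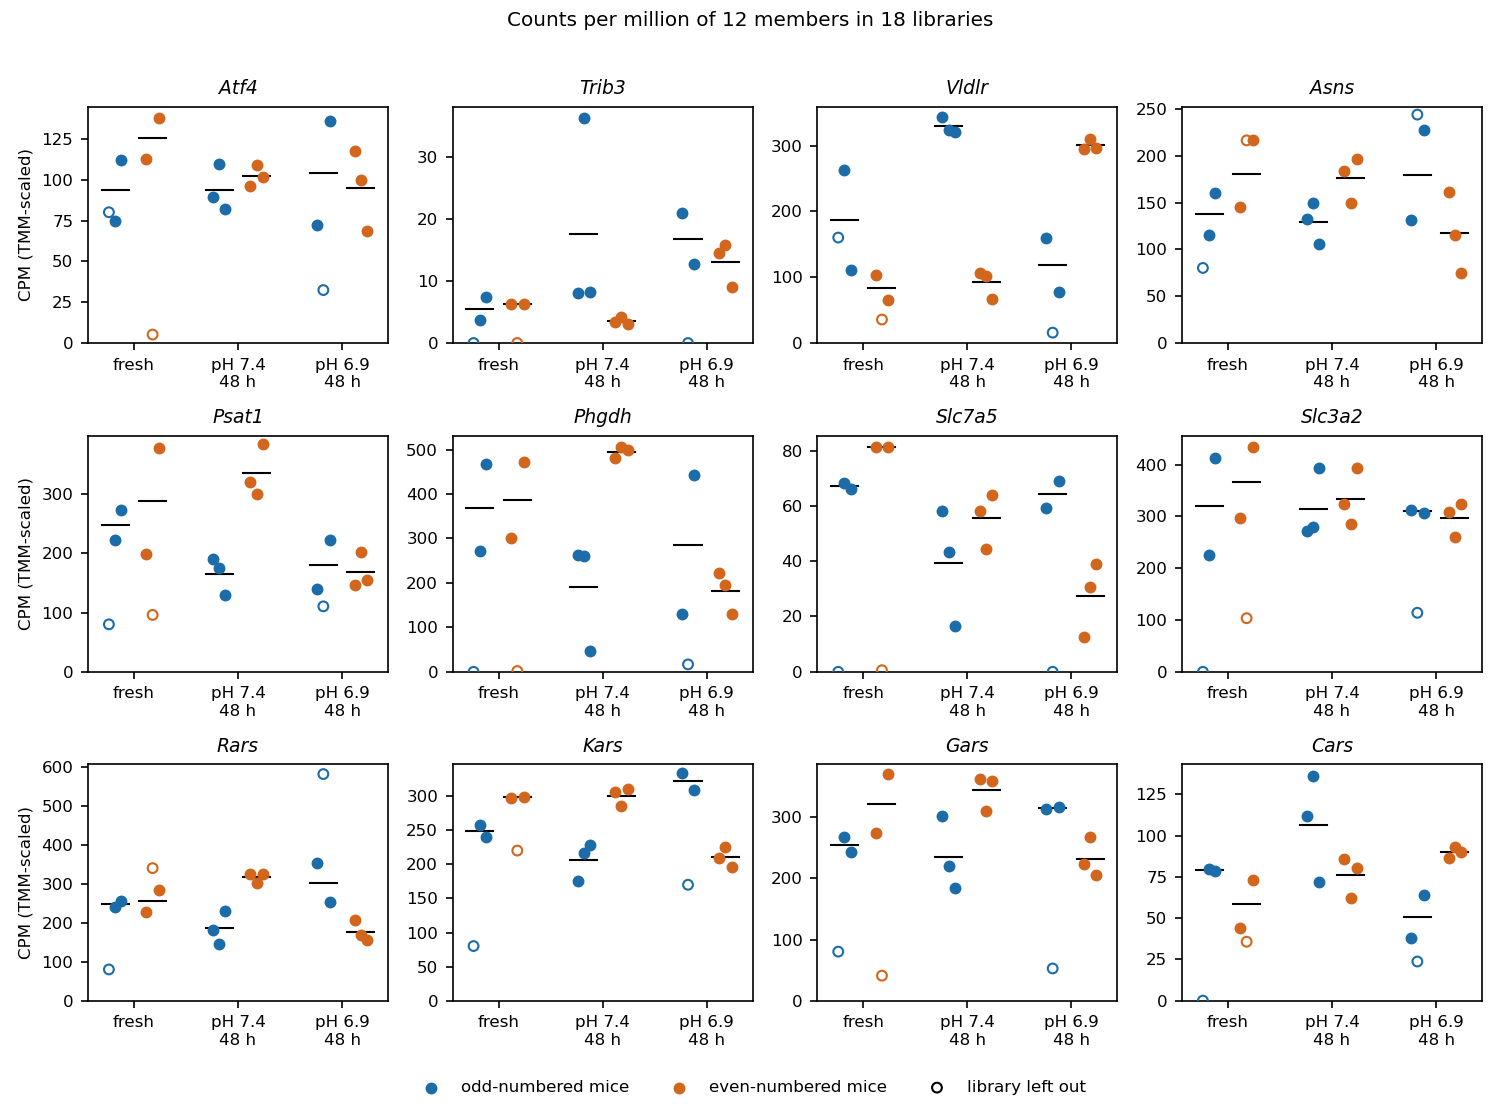
TMM-scaled CPM (y axis, linear from 0) of 12 genes in the 18 libraries by group (x axis), with odd mice in blue, even mice in orange, open circles for the 3 left-out libraries and a line for the mean of the filled points. A reader should see the 3 pH 7.4 odd and 3 pH 6.9 even libraries of Vldlr between 295 and 343, and the high Trib3 library at 36.4.

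Of the 9 enzymes that make serine, glycine, asparagine, proline, alanine and one-carbon units, 1 (Psat1) passed in even mice, where 6.75% of all genes passed. All 9 had a negative log2 fold change at pH 6.9 there, with a median of -0.61 against 0.04 over all genes. In odd mice 6 of 9 were positive, with a median of 0.26 against -0.08, and 1 (Gpt2) passed, downward, where 11.1% of all genes passed. The even pH 7.4 libraries are those with the high progenitor markers given above.

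Phgdh catalyses the step that opens serine synthesis. It was at 482, 506 and 498 CPM at pH 7.4, against 222, 194 and 131 at pH 6.9 in even mice. In odd mice it was at 262, 261 and 47.5 CPM at pH 7.4, against 129.6 and 443 at pH 6.9. The even groups were far apart and the odd groups overlapped widely. The log2 fold change was -1.46 ± 0.59 (2.75-fold lower, adjusted p = 0.177) in even and 0.60 ± 0.64 (adjusted p = 0.604) in odd mice. Without the filter on low counts, the even contrast passed with an adjusted p of 3.28e-09, at nearly the same log2 fold change (-1.47). It also passed without pH 7.4 5 (adjusted p = 0.0341), and in the other 20 of 22 alternatives it did not.

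Psat1 catalyses the next step of the same path. It was at 320.4, 301 and 384 CPM at pH 7.4, against 146, 202 and 155 at pH 6.9 in even mice, without overlap. In odd mice it was at 190.3, 176 and 129.9 CPM at pH 7.4, against 139 and 222 at pH 6.9, and fresh cells had 198 to 378. Psat1 was 2.01-fold lower at pH 6.9 in even mice (log2 -1.01 ± 0.24, adjusted p = 0.0191) and changed by 0.14 ± 0.27 in odd mice (adjusted p = 0.797). The fall did not pass without pH 7.4 6 (adjusted p = 0.122), pH 6.9 2 (0.073) or pH 6.9 6 (0.0973). The difference between the sets was -1.15 ± 0.36 (adjusted p = 0.0341), and 0.0605 with the mouse number as a term. The difference did not pass in 6 of the 15 fits that left out 1 library (adjusted p up to 0.236, without pH 6.9 5, log2 -0.75). Over all 18, the fall in even mice was -0.996 (adjusted p = 0.878) and the difference -0.93 (0.468).

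Psph completes serine synthesis. It was at 73.9, 109 and 82.0 CPM at pH 7.4, against 109 and 154 at pH 6.9 in odd mice, and at 128, 142 and 135 and at 136, 80.8 and 83.1 in even mice. The groups overlapped in both sets, and neither contrast passed (log2 0.57 ± 0.25 and -0.46 ± 0.23). Their difference passed, at -1.02 ± 0.34 (adjusted p = 0.0435). It did not pass in 8 of the 15 fits that left out 1 library (adjusted p up to 0.23, without pH 6.9 5) or with all 18 libraries (-1.55, 0.171).

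Shmt2 converts serine to glycine in mitochondria. It was at 260.1, 226 and 268 CPM at pH 7.4, against 178, 135 and 105 at pH 6.9 in even mice, without overlap. In odd mice it was at 181, 180.1 and 109.7 CPM and at 154 and 221, which overlap. The log2 fold change was -0.87 ± 0.26 (adjusted p = 0.051) in even and 0.26 ± 0.29 (adjusted p = 0.617) in odd mice. The difference was -1.13 ± 0.39 (adjusted p = 0.0493), and 0.119 with the mouse number as a term. It did not pass in 8 of the 15 fits that left out 1 library (adjusted p up to 0.233, without pH 6.9 5) or with all 18 libraries (-0.59, 0.858).

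Mthfd2, the mitochondrial folate enzyme next to Shmt2, did not pass. It was at 116, 92.3 and 133 CPM at pH 7.4, against 80.6, 63.2 and 44.1 at pH 6.9 in even mice, and at 70.6, 76.7 and 17.42 and at 62.3 and 93.8 in odd mice. The even groups did not overlap, at a log2 fold change of -0.89 ± 0.46 (adjusted p = 0.289).

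Asns makes asparagine and is the textbook ATF4 target. In even mice it was at 183, 149 and 196 CPM at pH 7.4, against 161, 116 and 75.2 at pH 6.9. In odd mice it was at 133, 149 and 105 CPM and at 131 and 228. The groups overlapped in both sets, with log2 fold changes of -0.61 ± 0.27 (adjusted p = 0.197) and 0.48 ± 0.30 (adjusted p = 0.322) and a difference of -1.09 ± 0.40 (adjusted p = 0.0676). DESeq2 passed the difference at 0.0476 and limma-voom at 0.0258.

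Gpt2, a mitochondrial alanine transaminase, had few counts. It was at 10.0, 6.44 and 7.52 CPM at pH 7.4, against 0 and 0.960 at pH 6.9 in odd mice, and between 2.09 and 14.0 CPM in the even cultures. A count of 0 in pH 6.9 1 allows up to 1.85 CPM. The fitted log2 fold change in odd mice was -3.49 ± 0.95 (adjusted p = 0.0246). It did not pass without pH 7.4 1 (adjusted p = 0.0594), pH 6.9 1 (0.118) or pH 6.9 5 (0.0546), with limma-voom (0.171), with the mouse number as a term (0.0528), or with all 18 libraries (-3.85, 0.118). The difference of 3.42 ± 1.14 (adjusted p = 0.0437) did not pass in 10 of the 15 fits that left out 1 library (adjusted p up to 0.113, without pH 6.9 1). Pycr1 and Aldh18a1, of proline synthesis, did not pass in either set (log2 -1.82 and -0.56 in odd, -0.32 and -0.36 in even mice).

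**Figure D3:**
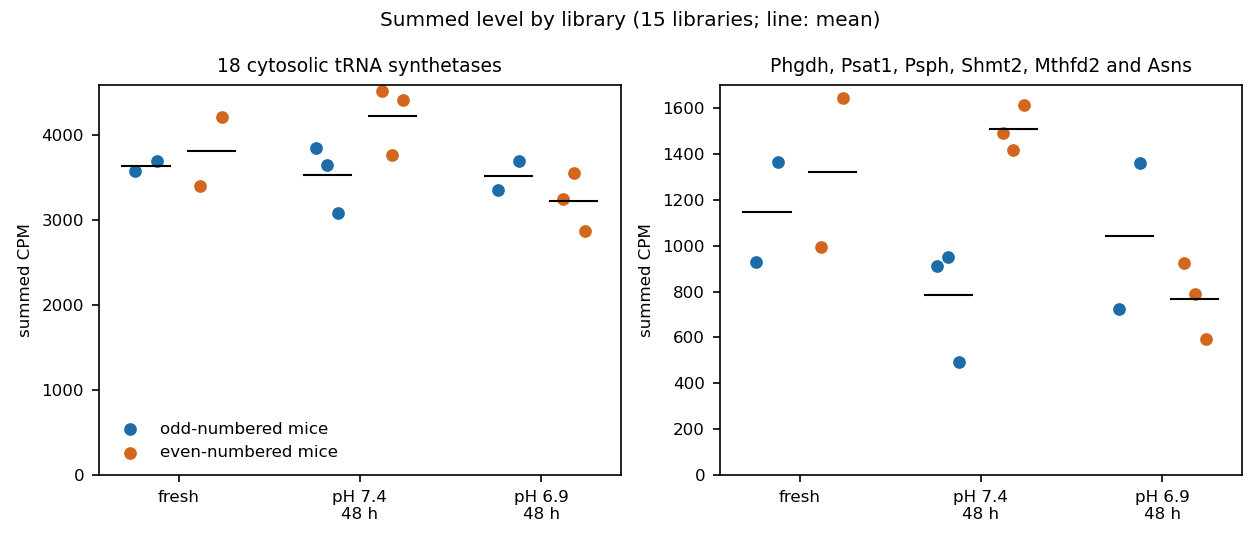
Summed CPM (y axis, linear from 0) of the 18 synthetases (left) and of Phgdh, Psat1, Psph, Shmt2, Mthfd2 and Asns (right) in 15 libraries by group (x axis), with a line for the mean of each set. A reader should see the even mice at pH 7.4 above those at pH 6.9 in both panels, at 3769 to 4517 against 2874 to 3561 and at 1417 to 1614 against 594 to 924.

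Summed over Phgdh, Psat1, Psph, Shmt2, Mthfd2 and Asns, even mice had a mean of 1507 ± 100 CPM at pH 7.4, against 769 ± 166 at pH 6.9 (SD, n = 3 in each). Odd mice had 785 ± 255 (SD, n = 3) and 1043 ± 449 (SD, n = 2), and the fresh libraries 930 to 1645. These 6 enzymes were grouped after their values were seen, so the sum is a description. The 3 even pH 7.4 libraries were the highest of the cultured libraries, and the highest fresh library lay above them.

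Among the transporters, Slc7a5 imports large neutral amino acids as a partner of Slc3a2. It was at 58.2, 43.2 and 16.6 CPM at pH 7.4, against 59.2 and 69.1 at pH 6.9 in odd mice. Even mice had 58.2, 44.3 and 63.9 CPM at pH 7.4, against 12.8, 30.5 and 39.1 at pH 6.9. The pH groups did not overlap in either set and lay in opposite order. Fresh cells had 66.1 to 81.4 CPM, above all cultured even libraries. The log2 fold change was 0.71 ± 0.41 (adjusted p = 0.286) and -0.99 ± 0.38 (adjusted p = 0.125), and the difference was -1.70 ± 0.56 (adjusted p = 0.0406). The difference did not pass in 12 of the 15 fits that left out 1 library, the 4 fresh libraries among them (adjusted p 0.0505 to 0.127). Over all 18 it was -1.15 (adjusted p = 0.771).

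Slc3a2 did not pass any test of pH. It was at 271, 279 and 394 CPM at pH 7.4, against 313 and 307 at pH 6.9 in odd mice, and at 325, 285 and 394 and at 309, 260.1 and 324 in even mice. The groups overlapped in both sets, at log2 fold changes of -0.03 ± 0.25 (adjusted p = 0.963) and -0.18 ± 0.23 (adjusted p = 0.707). Slc7a1, an arginine and lysine transporter, and Slc1a4 and Slc1a5, neutral amino acid exchangers, did not pass. Their log2 fold changes were 0.42, -2.32 and 0.13 in odd and -0.74, 0.48 and -0.63 in even mice.

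Of the 18 synthetases, 3 passed in odd and 2 in even mice, and 4 passed the test of the difference. These shares (16.7%, 11.1% and 22.2%) stand beside 11.1%, 6.75% and 18.1% of all genes. In even mice 15 of 18 had a negative log2 fold change, with a median of -0.38 against 0.04 over all genes. In odd mice 12 were negative, with a median of -0.11 against -0.08. Each enzyme charges the tRNA of its own amino acid, and Rars (arginine) and Kars (lysine) passed in both sets with opposite directions.

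Rars was at 182, 145 and 230.5 CPM at pH 7.4, against 353 and 254 at pH 6.9 in odd mice. Even mice had 325, 303 and 327 CPM at pH 7.4, against 208, 169 and 156 at pH 6.9. Neither set overlapped, and fresh cells (228 to 283 CPM) lay between the pH groups of even mice. Rars was 1.63-fold higher at pH 6.9 in odd mice (log2 0.70 ± 0.22, adjusted p = 0.0422) and 1.81-fold lower in even mice (log2 -0.86 ± 0.20, adjusted p = 0.0139). The difference was -1.56 ± 0.29 (adjusted p = 0.00119) and passed in all 15 fits that left out 1 library, with adjusted p up to 0.0107. The rise in odd mice did not pass in 6 of those 15 fits (without pH 7.4 1, 2, 3 or 6 or pH 6.9 1 or 4, adjusted p up to 0.339) or with the mouse number as a term (0.151). The fall in even mice did not pass without pH 7.4 6 (0.0799), pH 6.9 4 (0.0567) or pH 6.9 6 (0.0891). With all 18 libraries the log2 values were 1.09 (adjusted p = 0.141) and -0.84 (0.863), and the difference -1.94 (0.0563). The left-out library pH 6.9 3 had 582 CPM, above all the 15.

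Kars was at 176, 217 and 228 CPM at pH 7.4, against 334 and 309.8 at pH 6.9 in odd mice. Even mice had 306, 285 and 311 CPM at pH 7.4, against 210.0, 226 and 196 at pH 6.9, and fresh cells 239.9 to 299. The groups did not overlap in either set. Kars was 1.55-fold higher at pH 6.9 in odd mice (log2 0.63 ± 0.17, adjusted p = 0.0258) and 1.44-fold lower in even mice (log2 -0.53 ± 0.16, adjusted p = 0.0486). The difference was -1.16 ± 0.23 (adjusted p = 0.00211) and passed in all 15 fits that left out 1 library, with adjusted p up to 0.0108. The fall in even mice passed in only 4 of those fits (adjusted p up to 0.215, without pH 7.4 6). The rise in odd mice did not pass without pH 7.4 1 (0.0911), pH 6.9 1 (0.139) or pH 6.9 5 (0.0775). With the mouse number as a term, the adjusted p was 0.053 in odd and 0.0768 in even mice. With all 18 libraries the log2 values were 0.39 (adjusted p = 0.557) and -0.52 (1), and the difference -0.91 (0.329).

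Gars (glycine) was at 302, 221 and 184 CPM at pH 7.4, against 314 and 317 at pH 6.9 in odd mice, and at 363, 311 and 359 and at 224, 268 and 206 in even mice. The groups did not overlap in either set and lay in opposite order, as for Rars and Kars. Neither contrast passed (log2 0.42 ± 0.21, adjusted p = 0.219, and -0.58 ± 0.19, adjusted p = 0.0782), and the difference of -0.999 ± 0.29 did (adjusted p = 0.0208). The difference did not pass without pH 7.4 6 (adjusted p = 0.0598), pH 6.9 5 (0.0623) or pH 6.9 6 (0.0576), or with all 18 libraries (-0.52, 0.829).

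Cars (cysteine) had the opposite signs to Rars, Kars and Gars. It was at 112, 136 and 71.7 CPM at pH 7.4, against 37.6 and 63.9 at pH 6.9 in odd mice, without overlap, and at 85.8, 62.4 and 80.2 and at 86.4, 93.1 and 89.8 in even mice. Cars was 2.07-fold lower at pH 6.9 in odd mice (log2 -1.05 ± 0.31, adjusted p = 0.0357) and changed by 0.23 ± 0.27 in even mice (adjusted p = 0.692). The fall did not pass without pH 7.4 1 (adjusted p = 0.0813), pH 7.4 3 (0.116) or pH 6.9 1 (0.26), or with the mouse number as a term (0.111). The difference was 1.28 ± 0.40 (adjusted p = 0.0348), and 0.0894 with that term. The difference did not pass in 7 of the 15 fits that left out 1 library (adjusted p up to 0.154, without pH 6.9 1). Over all 18, the fall was -1.34 (adjusted p = 0.144) and the difference 1.57 (0.196).

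The other 14 synthetases did not pass in either set. Their log2 fold changes ran from -0.56 (Iars) to 0.32 (Eprs) in odd mice and from -0.73 (Mars1) to 0.09 (Qars) in even mice. Yars (tyrosine) came nearest to the threshold, with -0.71 ± 0.22 in even mice (adjusted p = 0.0613). Summed over all 18, the synthetases were at 4517, 3769 and 4416 CPM at pH 7.4, against 3246, 3561 and 2874 at pH 6.9 in even mice, without overlap. In odd mice they were at 3846, 3649 and 3091 CPM and at 3352 and 3693, which overlap. In even mice 17 of the 44 genes (38.6%) lay lower at pH 6.9 without overlap and 6 (13.6%) higher, where 16.4% and 15.6% of all genes did. In odd mice 6 (13.6%) lay lower and 9 (20.5%) higher, where 19.4% and 19.1% of all genes did.

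**Figure D4:**
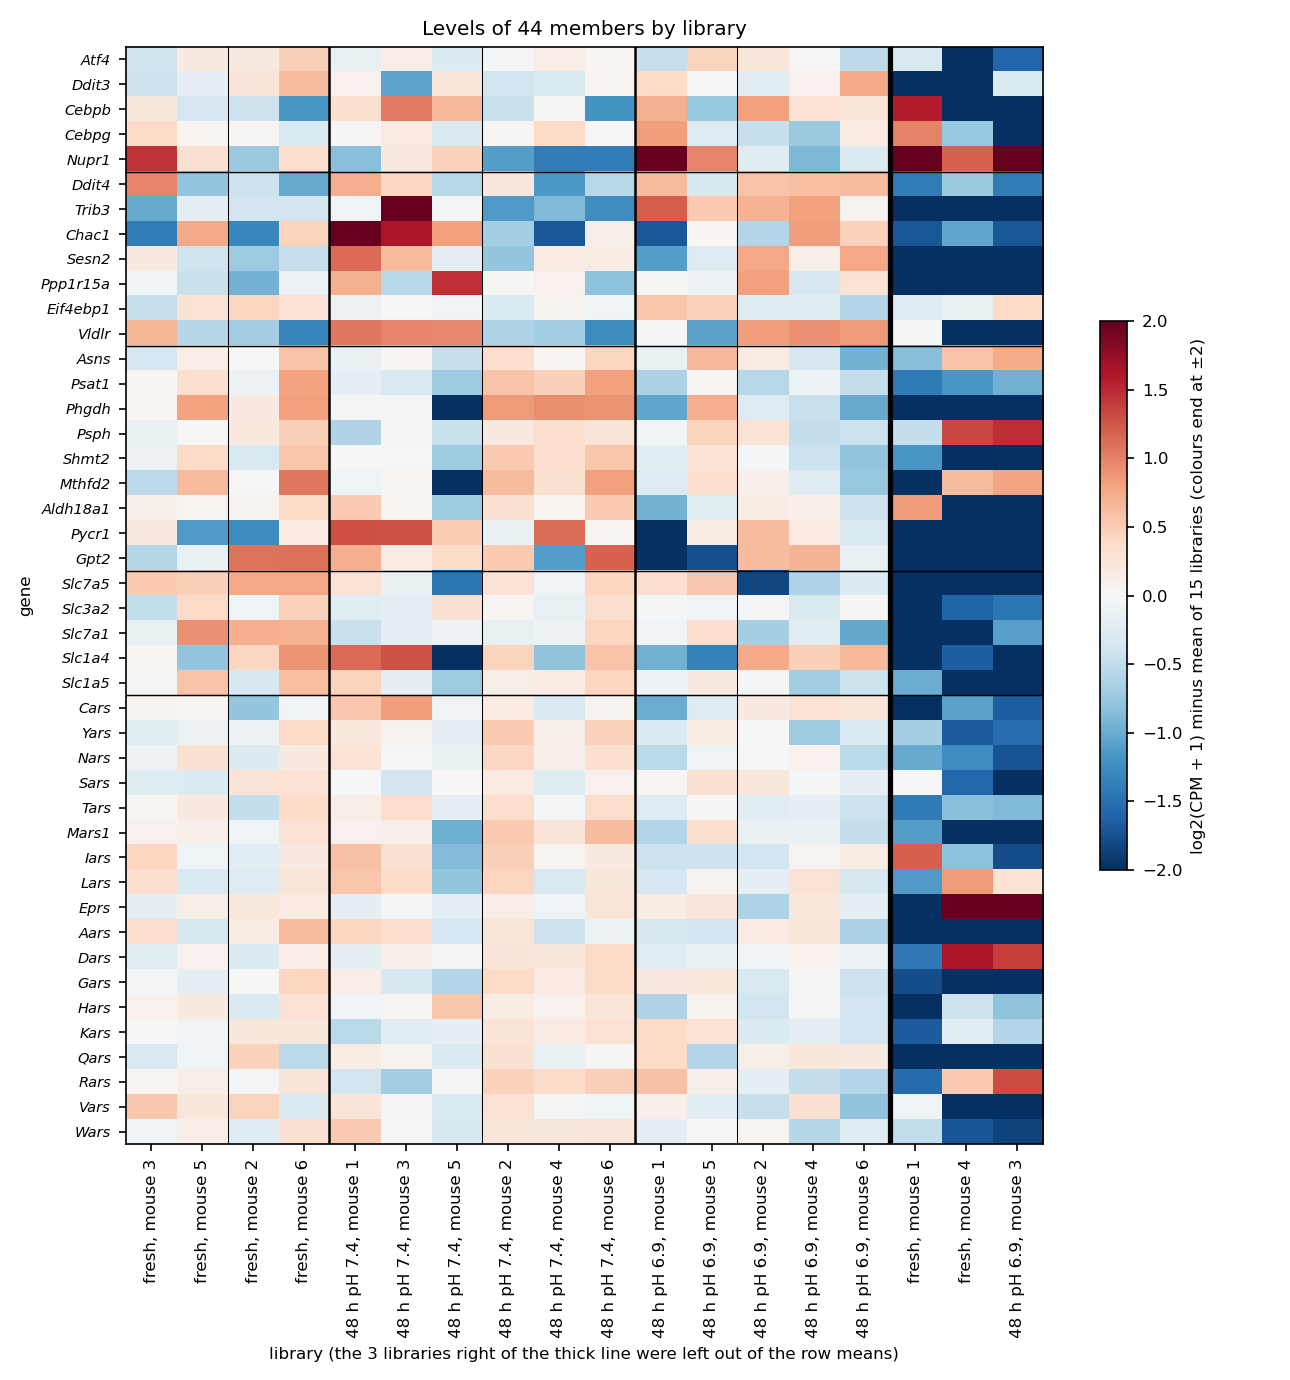
Log2(CPM + 1) of the 44 genes (rows, by role) minus each row's mean over 15 libraries, by library (columns), with red above and blue below the mean and colours ending at 2 on either side. A reader should see Phgdh, Psat1, Shmt2 and Rars red in the even pH 7.4 columns, where Aars, Cars and Gpt2 are not red throughout. Vldlr is red in the odd pH 7.4 and even pH 6.9 columns. The 3 left-out libraries at the right are unlike all others, with Eprs and Dars high in 2 of them.

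Some genes upstream of ATF4 also passed in opposite directions in the 2 sets of mice. Of 16 kinases and eIF2 factors, 15 were tested. In odd mice 4 rose and 0 fell at pH 6.9, where 5.07% of all genes rose and 6.01% fell. In even mice 0 rose and 4 fell, where 2.67% of all genes rose and 4.07% fell. The difference passed in 6 of 15, all of them smaller in even mice, where 9.09% of all genes passed in that direction. Eif2s1, the eIF2 subunit that the stress kinases phosphorylate, changed by 0.64 ± 0.18 (adjusted p = 0.0302) and -0.64 ± 0.17 (adjusted p = 0.0267). Eif2b3, a subunit of the factor that recharges eIF2, changed by 0.97 ± 0.23 (adjusted p = 0.0137) and -0.93 ± 0.21 (adjusted p = 0.0147). Eif2s2, another eIF2 subunit, changed by 0.94 ± 0.25 (adjusted p = 0.0228) and -0.81 ± 0.23 (adjusted p = 0.0394).

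Partners of the synthetases were looked at as a list of their own. Of 5 genes of the multisynthetase complex and phenylalanine synthetase, 2 rose in odd and 3 fell in even mice, and the difference passed in 4, read against the same shares of all genes (5.07%, 4.07% and 9.09%). Aimp2, a scaffold of the complex, changed by 0.98 ± 0.24 (adjusted p = 0.0152) and -0.93 ± 0.22 (adjusted p = 0.0173). Of 17 mitochondrial synthetases, 1 rose in odd and 1 fell in even mice, close to those shares, and the difference passed in 2. The 1 was Yars2 in both sets, at 0.88 ± 0.28 (adjusted p = 0.0456) and -1.20 ± 0.25 (adjusted p = 0.00874). Of 18 tested genes of amino acid sensing by mTORC1, 1 passed in each set and 3 in the difference, where 18.1% of all genes passed the difference. The 1 was Sesn1, which fell by 0.89 ± 0.23 in odd mice (adjusted p = 0.019) and rose by 0.95 ± 0.20 in even mice (adjusted p = 0.00795). Of 13 tested other ATF4 targets, 0 passed in odd mice, 3 passed the difference and 1 fell in even mice (Got1, -0.96 ± 0.28, adjusted p = 0.0486).

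Few of these genes passed against fresh cells, at shares near those of all genes. At pH 7.4, 0 of 44 passed with edgeR in odd mice (0.113% of all genes passed) and 0 in even mice (0.103%). Before adjustment, 3 and 2 of the 44 had p under 0.05, against 10.5% and 12.4% of all genes, and the 2 other tools, DESeq2 and limma-voom, called 0 of the 44 in both. Without the filter on low counts, 1 gene of the set, Phgdh, passed in odd mice (log2 -0.96, adjusted p = 0.00446). At pH 6.9, 0 of 44 passed in odd mice with edgeR (0.6% of all genes passed). Before adjustment 4 of the 44 had p under 0.05, against 13.6% of all genes, and DESeq2 and limma-voom called 0. In even mice 4 of 44 passed (9.09%), where 10.9% of all genes did (4.77% up, 6.15% down). Vldlr rose 3.57-fold (log2 1.84 ± 0.35, adjusted p = 0.00354). Slc7a5 fell 2.90-fold (log2 -1.53 ± 0.41, adjusted p = 0.022), Slc7a1 fell 2.60-fold (-1.38 ± 0.41, adjusted p = 0.0363) and Eif4ebp1 fell 1.65-fold (-0.72 ± 0.21, adjusted p = 0.0299). Without fresh 6, 0 of the 44 passed, 1 of these 4 did without fresh 2, and 2 did without pH 7.4 6, pH 6.9 2, pH 6.9 4 or pH 6.9 6. None of the 44 passed with all 18 libraries. The fall of Slc7a1 had an adjusted p of 0.0626 with the mouse number as a term. Comparisons with fresh cells rest on 2 fresh libraries per set and share those libraries between pH 7.4 and pH 6.9. In odd mice, 1 of the 2 is the library with the progenitor sum of 5517 CPM.

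Even and odd mice were also compared within each group, as a description, since the split was chosen after libraries had been seen to differ by it. Between even and odd mice, 0 of 44 genes passed in fresh cells with edgeR (0.0563% of all genes passed). Before adjustment 2 of the 44 had p under 0.05, against 7.66% of all genes, and DESeq2 and limma-voom called 0. Without the filter, Vldlr passed in fresh cells (log2 -1.16, adjusted p = 0.00511). The fresh contrast holds 2 libraries against 2. At pH 7.4, 4 of 44 passed (9.09%), where 3.33% of all genes did (1.66% up, 1.67% down). Psat1 (log2 1.03 ± 0.24, adjusted p = 0.0266) and Rars (0.79 ± 0.20, adjusted p = 0.0334) were higher in even mice, and Vldlr (-1.83 ± 0.30, adjusted p = 0.00364) and Trib3 (-2.34 ± 0.59, adjusted p = 0.0365) were lower. Without the high Trib3 library, pH 7.4 3, the value for Trib3 was -1.21 (adjusted p = 0.265). At pH 6.9, 6 of 44 passed (13.6%), where 14.4% of all genes did (7.02% up, 7.36% down). Vldlr (1.36 ± 0.34, adjusted p = 0.0144) and Gpt2 (3.48 ± 0.95, adjusted p = 0.0202) were higher in even mice, and Nupr1 (-3.01 ± 0.57, adjusted p = 0.00271), Eif4ebp1 (-0.86 ± 0.21, adjusted p = 0.00989), Rars (-0.77 ± 0.22, adjusted p = 0.0233) and Kars (-0.61 ± 0.17, adjusted p = 0.0244) were lower. Without pH 6.9 1, the value for Nupr1 was -1.49 (adjusted p = 0.122) and that for Rars -0.52 (0.241). A term for the mouse number cannot check these contrasts, since each number is only odd or only even. Leaving out 1 library reduced the 4 to as few as 1 (without pH 7.4 2, 3 or 6; 2 without pH 7.4 4) and the 6 to as few as 1 (without pH 6.9 1; 3 without pH 6.9 6).

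Across the 15 libraries the enzymes of synthesis varied together. Pearson's r between pairs of them had a median of 0.64 over 36 pairs, against 0.28 over 153 pairs of synthetases, 0.22 over 21 pairs of effectors, -0.15 over 10 pairs of transcription factors and 0 over all pairs of genes tested. Atf4 had its highest values with Asns (0.82), Psph (0.71) and Mthfd2 (0.66). It correlated with Trib3 at 0.03, with Chac1 at 0.14 and with Slc7a5 at 0.16. Values were negative with Ddit3 (-0.19), Ppp1r15a (-0.32), Vldlr (-0.56) and Ddit4 (-0.58), among others. Vldlr correlated with Cebpb at 0.87 and with Psat1 at -0.77. These values describe libraries that share groups, indices and depth, and they carry no test.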

How the data were processed

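RNA-seq libraries were made with SMART-Seq v4 and Nextera XT, which mark no strand, so reads of a gene and its antisense partner cannot be told apart. Per the submitters' processing notes, kallisto and mm10 were used, with no version given. The authors deposited estimated counts per gene symbol, whole numbers in this table; no label says how transcripts were summed to genes. The members, gene lists and tests were chosen with earlier results of these data known. Genes were filtered by filterByExpr and tested by edgeR 4.0.16 (R 4.3.3) with TMM scaling and robust quasi-likelihood fits. These had 1 coefficient per group over 18 libraries (10104 genes), or 1 per group and parity of the mouse number over 15 libraries (10659 genes). The 15 leave out libraries with a total under 1e+05 counts or under 10000 genes detected. P-values were adjusted by Benjamini-Hochberg over all genes tested.

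Alternatives were DESeq2 size factors, no filter, at least 5 CPM in 6 libraries, DESeq2 1.42.0 as a whole, limma 3.58.1 (voom, quality weights), the mouse number as a term, all 18 libraries (or the 15) and leaving out each library. Values per library are given for Atf4, Ddit3, Trib3, Chac1, Asns, Psat1, Phgdh, Mthfd2, Slc7a5 and Slc3a2. They are also given for genes that passed in both sets or in the difference. Pathway genes are named where they passed in both sets, and others that passed are only counted. Got1 is named as the only other ATF4 target that passed for pH within a set. Nupr1 was added after its values were seen. Since 6 individual mice are described, equal numbers were taken to mean the same mouse. Correlations of same-numbered libraries' deviations were -0.492 to 0.143 (median -0.019), with 4 of 18 pairs over 0.1. The limit behind a 0 was taken as 3 counts, scaled by the library's total. Without molecular identifiers such limits cover counting error only. The sequence around the matches in 1 promoter is not reported here.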

Additional observations from a re-analysis of the deposited data

Results flagged for a closer look

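In 57 groups of 6 libraries examined for the genes with values per library, 4 had 1 library far from the other 5, where chance flags about 5% of groups. Trib3 was at 36.4 CPM in pH 7.4 3, against 3.01 to 8.32 in the others of its group. Slc3a2 was at 114 CPM and Psph at 313 CPM in pH 6.9 3, and Kars was at 80.2 CPM in fresh 1. Both of these libraries, pH 6.9 3 and fresh 1, are among the 3 left out within sets of mice.

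The pH effect differed between even and odd mice, by edgeR's test of the difference itself, in 11 of 44 genes (25%), where 18.1% of all genes passed. The split was chosen with earlier results of these data known, and pH and index cannot be told apart within a set. On the log2 scale, even minus odd, the difference was 3.18 for Vldlr, 3.42 for Gpt2 and 1.28 for Cars. It was -1.56 for Rars, -1.16 for Kars, -0.999 for Gars, -1.15 for Psat1, -1.70 for Slc7a5, -0.85 for Eif4ebp1, -1.02 for Psph and -1.13 for Shmt2. Of the 11, 3 (Vldlr, Rars and Kars) passed in each of the 15 fits that left out 1 library. In 5 of the 11 the difference did not pass with the mouse number as a term.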

How the results depend on the processing

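Of 633 values of these genes recomputed under the alternatives other than leaving out a library, 527 kept their direction and their side of the threshold, 62 no longer passed and 20 newly passed. None that passed changed sign, and 24 that did not pass did. These counts include fits with the mouse number between even and odd mice, which are no check of that contrast. Scaling by DESeq2 size factors moved the median of all genes by at most 0.058. With all 18 libraries, every call of pH 6.9 against pH 7.4 for a gene of this set was lost except the difference of Vldlr (3.66, adjusted p = 0.03). The cause was not tested. In even mice the tools differed on how many of the 44 passed, at 8 with DESeq2, 14 with limma-voom and 11 without the filter, against 4. Counts over all genes rose too, to 1097, 1725 and 1042 (of 15692 tested without the filter), against 719 (of 10659).

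Counts of all genes moved as follows. With DESeq2, the pH comparison had 4 genes over 18 libraries and 1097 (719 with edgeR) in even mice. Culture at pH 7.4 against fresh had 173 (12) in odd and 135 (11) in even mice, and pH 6.9 against fresh 273 (64) in odd mice. Even against odd mice had 57 (6) fresh and 783 (355) at pH 7.4. With limma-voom these were 1725 for pH in even mice, 7 and 33 for pH 7.4 against fresh, 21 for pH 6.9 against fresh, and 0 and 834 between the mice. Without the filter they were 317 and 369, 391, and 161 and 792, with more genes tested. With all 18 libraries the pH comparison had 65 genes in odd mice (29.2% of them up, against 45.7%) and 0 in even mice, and the difference 173. Against fresh cells there were 1 and 0 at pH 7.4 and 1 and 82 at pH 6.9, and between the mice 0, 0 and 152 (fresh, pH 7.4, pH 6.9).

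With the mouse number as a replicate block, pH in odd mice had 775 genes (1181 without it), pH 7.4 against fresh 5 in even mice, pH 6.9 against fresh 20 in odd mice, and even against odd mice 1, 95 and 603. For the genes of this set, the block ended 5 of 6 calls in odd mice, 1 of 4 in even mice and 5 of 11 differences. Against fresh cells it ended the fall of Slc7a1 (above).

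Leaving out 1 library at a time gave 0 to 1 genes for pH over 18 libraries and 0 for the other 18-library comparisons, 464 to 1365 for pH in odd mice, 161 to 910 in even mice and 1390 to 2017 for the difference. Against fresh cells it gave 1 to 24 (odd) and 0 to 24 (even) at pH 7.4 and 14 to 150 (odd) and 422 to 1341 (even) at pH 6.9. Between the mice it gave 2 to 14 fresh, 59 to 424 at pH 7.4 and 752 to 1741 at pH 6.9. Of the 44 genes, 1 to 8 passed in odd mice, 1 to 11 in even mice and 4 to 11 for the difference. Where 1 library is left in a set, its spread is assumed to be that of the others. Genes under about 10 CPM, such as Chac1 and Gpt2, rest on few counts.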
